A study of Mus musculus with 12 samples.

Results

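Transcripts of 37 genes whose products are made by hepatocytes, the parenchymal cells of the liver, were followed in cultures of mouse liver HSCs treated with riociguat. The genes were chosen by symbol as known hepatocyte genes for plasma proteins, the urea cycle, amino acid breakdown, cytochromes P450 and gluconeogenesis, with no measured value in the rule. The choice was nevertheless made with earlier results of these data known. All 37 were found among the 53452 genes of the count table, and all 37 passed the filter on low counts that left 16036 genes for testing. The labels do not spell out HSC, which is read here as hepatic stellate cell, the vitamin A-storing pericyte of the liver sinusoid.

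Cells freshly isolated from wild-type mouse liver were sequenced as bulk RNA in 12 libraries, with 3 in each of 4 groups. All cultures stood for 12 h before the medium was changed and were collected 24 h after that change. Controls received the solvent DMSO for the last 12 h, so it was added 12 h after the medium change. Riociguat, which stimulates soluble guanylate cyclase, the enzyme that makes cyclic GMP, was present for the last 6 h, 12 h or 24 h. The 6 h group received it 18 h after the medium change, the 12 h group 12 h after it, and the 24 h group at the change itself. No group received DMSO for 6 h or for 24 h. The dose, the sex and age of the mice, and any pooling of animals are not given in the sources used here, and the labels do not tell whether the replicates are separate animals or isolations. So p-values measure the spread between these libraries, which may be technical.

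Hepatocytes secrete most of the proteins of blood plasma, among them albumin, the apolipoproteins, the fibrinogen chains, transferrin and many protease inhibitors. They also hold the whole urea cycle, which turns ammonia into urea, and much of the body's amino acid breakdown, drug oxidation and glucose production. These genes depend on a set of liver-enriched transcription factors, among them HNF4A, the FOXA proteins and the C/EBP proteins. Stellate cells lie in the space between hepatocytes and the sinusoidal endothelium and are isolated from digested whole liver.

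The libraries held 12953096 to 27358893 counts. Levels are given as CPM, counts per 1e+06 counts of the library after TMM scaling. All of the 19 stellate cell markers were detected and passed the filter, and their sum was 4594 to 5217 CPM in the 12 libraries. Reln was the most abundant of them with 1366 ± 12.8 CPM in DMSO (SD, n = 3), while Lrat had 4.81 ± 1.84 CPM and Gfap 0.773 ± 0.468 CPM. Markers of endothelial cells summed to 1189.8 to 1773 CPM, those of cholangiocytes to 356 to 468 CPM, those of macrophages to 161 to 216 CPM, and those of lymphocytes to 1.73 to 4.84 CPM. Mitochondrial genes took 2.61% to 4.75% of the counts. In bulk RNA fewer cells of a type and less RNA per cell cannot be told apart, and which cells carried the hepatocyte transcripts was not measured.

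Together the 37 genes took 0.107% to 0.242% of the counts of a library. Their summed level was 2164, 2092 and 2064 CPM in the DMSO libraries and 1871, 2072 and 1820 CPM after 6 h. After 12 h it was 2034, 2403 and 1991 CPM, and after 24 h it was 1253, 1445 and 1061 CPM. The 24 h libraries lay below all 9 others, and the highest of them reached 1445 CPM against 1820 CPM in the lowest of the rest. As group means the sum was 2107 ± 51.7 CPM in DMSO, 1921 ± 133 CPM after 6 h, 2143 ± 227 CPM after 12 h and 1253 ± 192 CPM after 24 h (SD, n = 3), so the 24 h mean was 59.5% of the DMSO mean. Alb made up 36.7% to 40.1% of the sum and Trf 9.96% to 12.0%. Without Alb the means were 1270, 1196, 1316 and 786 CPM in the same order of groups.

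**Figure D1:**
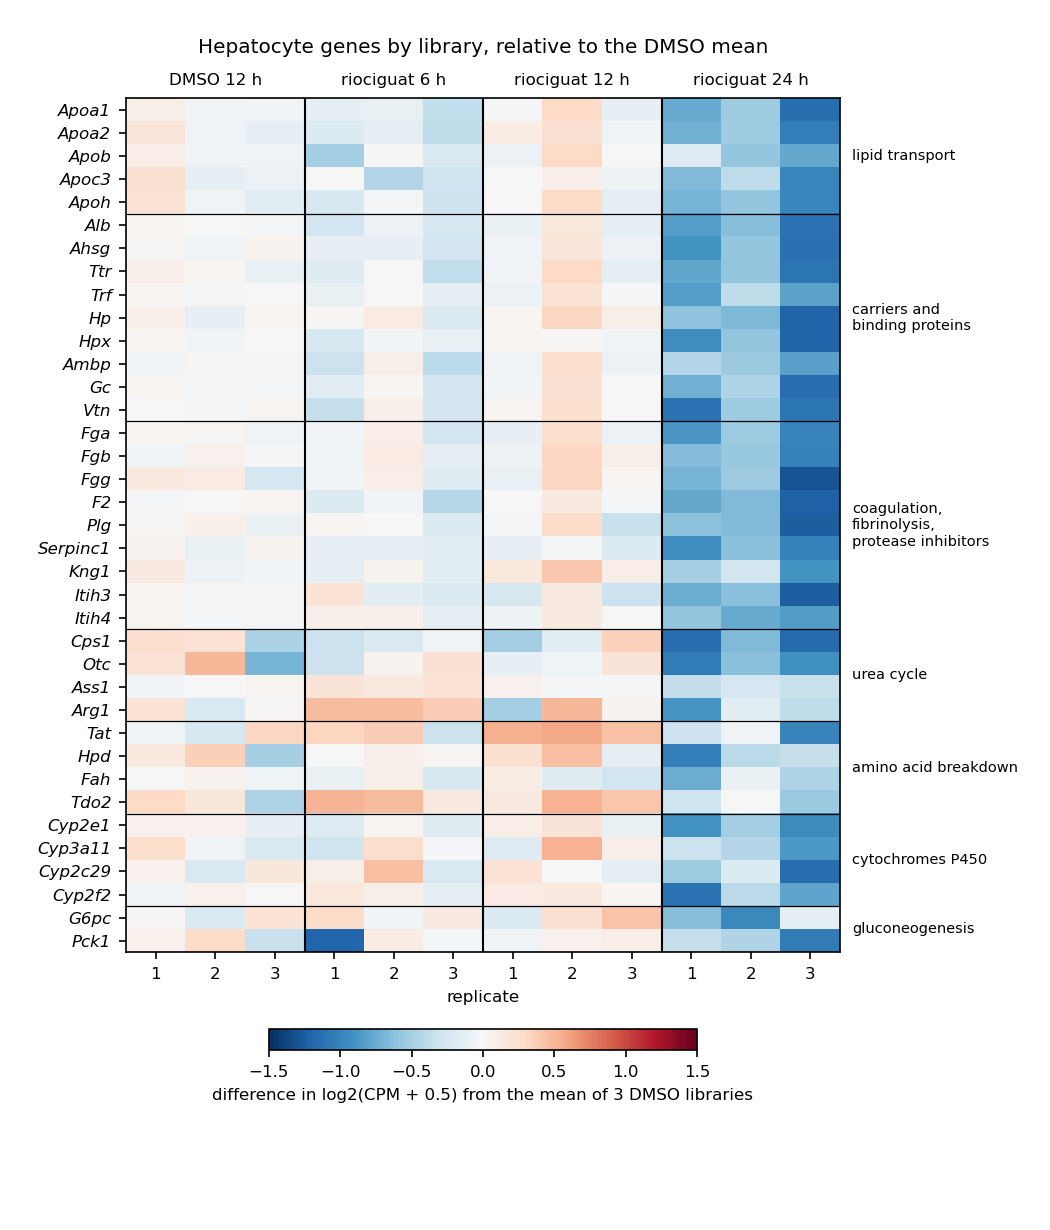
Heat map of the 37 hepatocyte genes (rows, grouped by role) in the 12 libraries (columns, by group and replicate). Colour is the difference in log2(CPM + 0.5) from the mean of the 3 DMSO libraries, blue lower and red higher. The 24 h columns are blue in nearly every row, while the 12 h columns stay close to white apart from replicate 2, in which 29 of the 37 genes were the highest of the 3 libraries.

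Levels per kilobase of annotated exon, averaged over all 12 libraries, spanned from 0.224 CPM per kb for Otc to 305 CPM per kb for Alb. Alb encodes serum albumin, the main carrier protein of plasma. After it came Apoa2 with 88.6, Apoa1 with 77.9, Trf with 60.2, Ass1 with 55.6 and Ttr with 43.1 CPM per kb. In DMSO these 6 stood at 357 ± 6.998, 101 ± 11.5, 89.3 ± 5.02, 66.7 ± 1.16, 56.5 ± 1.63 and 49.5 ± 3.22 CPM per kb (SD, n = 3). The DMSO values of the neighbours Apoa2 and Apoa1 overlapped, while Trf and Ass1 changed places between groups, Ass1 ranking above Trf after 6 h and after 24 h. At the low end stood Otc, Cps1, G6pc, Tdo2 and Tat, each under 1 CPM per kb. Apart from Ass1 the most abundant genes were thus secreted proteins, and the lowest were enzymes of the urea cycle, gluconeogenesis and amino acid breakdown.

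Riociguat and DMSO were both present for 12 h in the time-matched comparison, which asks what the compound did. None of the 37 genes passed the test (edgeR's quasi-likelihood test with Benjamini-Hochberg adjustment, threshold 0.05), against 5.66% of all 16036 genes that were called in either direction. None had an unadjusted p under 0.05 either, against 2695 of all 16036 genes, and DESeq2 also called 0 of 37. The log2 fold changes ranged from -0.15 to 0.60 with a median of 0.05, and 9 of 37 were negative. Over all genes tested the median was 0.0025. Alb, with 852, 839 and 819 CPM in the DMSO libraries, had 783, 937 and 761 CPM after 12 h. Its libraries overlapped between the groups and its log2 fold change was -0.02 ± 0.09 (SE, adjusted p = 0.962). For Hpx, which encodes the heme-binding hemopexin, the mean was 52.9 ± 1.24 CPM in DMSO and 52.9 ± 1.31 CPM after 12 h, and for Ass1 136 ± 3.93 and 137 ± 5.002 CPM (SD, n = 3). Tat, which encodes tyrosine aminotransferase, had 1.87, 1.60 and 2.57 CPM in DMSO and 3.10, 3.18 and 2.87 CPM after 12 h. It was the single one of the 37 whose 12 h libraries all lay above the DMSO libraries, as did 1681 of all 16036 genes tested. In 0 of the 37 they all lay below, against 1906 of all genes. The log2 fold change of Tat was 0.60 ± 0.31 and did not pass the test (adjusted p = 0.354).

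An early change was looked for by setting riociguat 6 h against DMSO 12 h, although the agents were present for different times. Ass1, the urea cycle enzyme that joins citrulline and aspartate, rose, and no other gene passed the test in either direction. Of the 37 genes 1 was called higher against 4.48% of all genes, and 0 were called lower against 5.24%. DESeq2 called the same single gene higher. An unadjusted p under 0.05 was found in 3 of the 37, against 3722 of all 16036 genes. The Ass1 level was 132, 137 and 139.7 CPM in DMSO and 156, 151 and 157 CPM after 6 h, so all 3 treated libraries lay above all 3 controls. Its log2 fold change was 0.18 ± 0.05 (SE, edgeR adjusted p = 0.0161). The call was lost without DMSO replicate 2 or without replicate 3 of the 6 h group, with adjusted p up to 0.0681. Among the other 36 genes 30 had a negative log2 fold change, and the median over all 37 was -0.09 against -0.0044 over all genes tested. In 6 of 37 genes the 3 treated libraries lay below all DMSO libraries, against 13.6% of all genes. Alb had 687, 786 and 699.9 CPM after 6 h, with a log2 fold change of -0.21 ± 0.09 (SE, adjusted p = 0.182). Arg1, which encodes the last enzyme of the urea cycle and is also made by macrophages, had 7.61, 5.52 and 6.63 CPM in DMSO and 9.20, 9.21 and 8.60 CPM after 6 h. Its treated libraries lay above the controls, but its log2 fold change of 0.45 ± 0.23 did not pass the test (adjusted p = 0.254). Summed markers of endothelial cells, which also make Ass1, were at 119% of the DMSO mean after 6 h and those of macrophages at 88.8%, while portal fibroblast and mesothelial markers stood at 77.9%, and their part in these values was not tested.

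A late change was looked for by setting riociguat 24 h against DMSO 12 h. Hepatocyte genes fell together: 28 of 37 passed the test as lower, against 7.41% of all genes tested, and 0 passed as higher, against 5.94%. All 37 log2 fold changes were negative, from -1.66 to -0.32, with a median of -0.78 against -0.01 over all genes tested. In 30 of 37 genes every 24 h library lay below every DMSO library, against 15.7% of all genes. Since riociguat was added at the medium change here and DMSO 12 h after it, the compound, its exposure time and the stage of culture at addition cannot be told apart. In the same libraries the summed stellate markers stood at 109.5% of DMSO, the endothelial ones at 84.8% and the cholangiocyte ones at 86.7%, and the part of these shifts in the fall was not tested. The calls by role were 5 of 5 lipid transport genes, 9 of 9 carriers and binding proteins, 9 of 9 genes of coagulation, fibrinolysis and protease inhibition, 3 of 4 urea cycle genes, 2 of 4 cytochromes P450, 0 of 4 genes of amino acid breakdown and 0 of 2 gluconeogenesis genes.

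**Figure D2:**
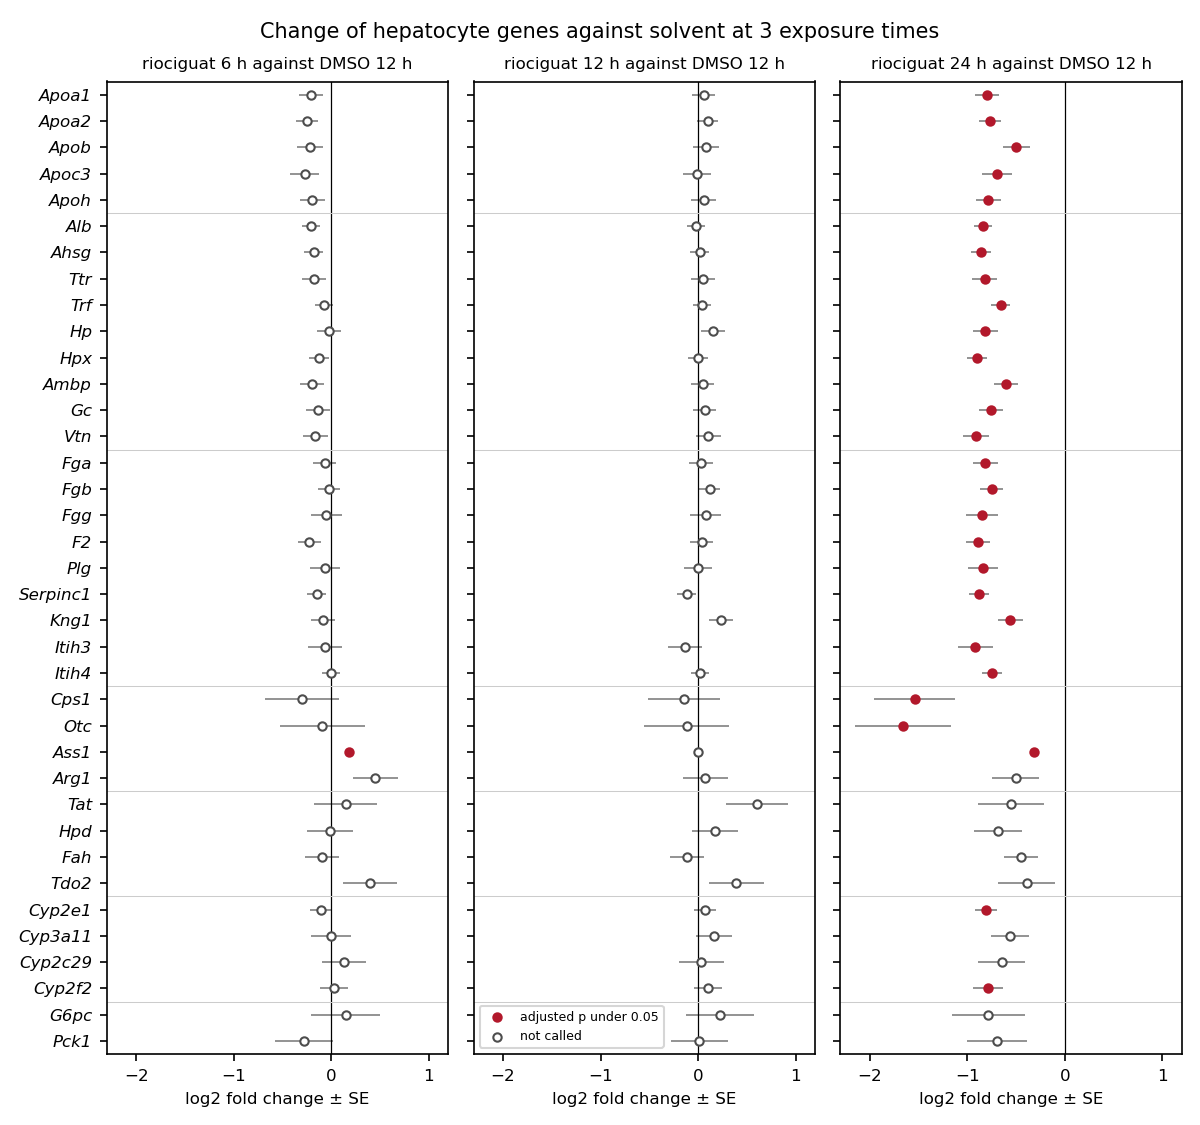
Log2 fold change of each of the 37 genes against DMSO 12 h (points, with SE as bars) after 6, 12 and 24 h with riociguat, genes grouped by role. Filled red points have an adjusted p under 0.05 and open points do not. Filled points number 1 in the left panel, 0 in the middle and 28 on the right, where every gene lies left of 0.

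Among the lipid transport genes, Apoa1 and Apoa2 encode the main proteins of high-density lipoprotein. Apoa1 measured 118, 106 and 107 CPM in DMSO, 100.5, 102 and 85.5 CPM after 6 h, 108, 135 and 101 CPM after 12 h and 65.3, 75.9 and 49.95 CPM after 24 h. Apoa2 had 61.3, 52.1 and 49.7 CPM in DMSO, 46.9, 48.9 and 41.4 CPM after 6 h, 58.7, 63.3 and 52.3 CPM after 12 h and 32.5, 37.4 and 26.1 CPM after 24 h. In both genes the 24 h libraries were the 3 lowest of the 12, and replicate 2 of the 12 h group was the highest. Apoa1 fell by 0.80 ± 0.12 on the log2 scale (SE, adjusted p = 0.000236) and Apoa2 by 0.77 ± 0.11 (SE, adjusted p = 0.000169). Apoc3, an inhibitor of lipoprotein lipase, lies 2467 bases from Apoa1 on chromosome 9. It had 17.03, 13.1 and 13.7 CPM in DMSO, 14.4, 10.5 and 11.71 CPM after 6 h, 14.4, 15.3 and 13.7 CPM after 12 h and 8.97, 10.98 and 7.12 CPM after 24 h, and fell by 0.70 ± 0.15, with its highest 24 h library above the lowest 6 h library. Apoh, which binds phospholipids in plasma, had 23.2, 19.3 and 17.96 CPM in DMSO, 16.9, 19.7 and 16.1 CPM after 6 h, 20.04, 24.4 and 18.3 CPM after 12 h and 12.1, 13.1 and 9.94 CPM after 24 h, and fell by 0.78 ± 0.13. Its annotated span, from the first to the last base of the gene, overlaps Prkca on the other strand and Gm11656 on the same strand. Whether exons of such genes overlap was not examined, and the strand handling of the counting is not known. Apob, the structural protein of very-low-density lipoprotein, had 49.1, 44.03 and 43.9 CPM in DMSO, 32.01, 45.99 and 38.9 CPM after 6 h, 43.04, 56.5 and 45.4 CPM after 12 h and 39.8, 30.4 and 26.6 CPM after 24 h. Replicate 1 of its 24 h group lay within the range of the 6 h libraries, and the gene fell by 0.50 ± 0.14 (adjusted p = 0.0241). That call was lost with DESeq2, without any of the DMSO libraries and without replicate 2 or 3 of the 24 h group, with adjusted p up to 0.135.

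Carriers and binding proteins fell by 0.60 to 0.91 on the log2 scale. Alb (chromosome 5, 90460897 to 90476602, GRCm38) had the smallest p of the 37 genes. Against 852, 839 and 819 CPM in the DMSO libraries it had 471, 539 and 389 CPM after 24 h, means of 837 ± 16.4 and 467 ± 75.1 CPM (SD, n = 3). Every 24 h library lay below every library of the other groups, and Alb fell by 0.84 ± 0.09 (SE, edgeR adjusted p = 7.19e-06). Hpx (chromosome 7, 105591613 to 105600137) had 54.02, 51.6 and 53.1 CPM in DMSO, 44.7, 51.6 and 49.1 CPM after 6 h, 53.8, 53.4 and 51.4 CPM after 12 h and 27.5, 35.1 and 22.8 CPM after 24 h. Its DMSO and 12 h libraries were nearly level, and it fell by 0.90 ± 0.11 after 24 h (adjusted p = 1.35e-05). Ahsg, which encodes the calcium-binding plasma protein fetuin-A (chromosome 16, 22891277 to 22899449), had 74.7, 71.2 and 76.6 CPM in DMSO, 67.9, 68.1 and 60.5 CPM after 6 h, 71.4, 83.9 and 69.6 CPM after 12 h and 39.7, 49.3 and 33.7 CPM after 24 h. It fell by 0.86 ± 0.10 (adjusted p = 1.85e-05), and its 6 h libraries lay between those of DMSO and 24 h without overlap. Trf, the iron carrier transferrin, had 226, 219 and 219.7 CPM in DMSO, 205, 222 and 201 CPM after 6 h, 209, 255 and 219 CPM after 12 h and 125, 169.7 and 127 CPM after 24 h, and fell by 0.66 ± 0.09. Ttr, the thyroid hormone and retinol-binding protein carrier transthyretin, had 61.9, 59.7 and 54.5 CPM in DMSO, 51.8, 58.7 and 45.2 CPM after 6 h, 56.8, 72.02 and 53.4 CPM after 12 h and 33.9, 38.8 and 27.1 CPM after 24 h, and fell by 0.82 ± 0.13. In both genes the 24 h libraries were the 3 lowest. The annotated span of Trf overlaps Gm20425 on the same strand.

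In the other 4 carriers too the 24 h libraries were the 3 lowest of the 12. Hp, which encodes the hemoglobin-binding haptoglobin, had 48.7, 42.2 and 47.6 CPM in DMSO, 46.6, 50.3 and 39.5 CPM after 6 h, 46.9, 57.3 and 49.1 CPM after 12 h and 30.2, 28.7 and 19.8 CPM after 24 h. Gc, the vitamin D-binding protein, had 61.4, 59.4 and 59.6 CPM in DMSO, 53.2, 61.3 and 49.7 CPM after 6 h, 58.6, 70.5 and 59.8 CPM after 12 h and 36.4, 43.3 and 27.1 CPM after 24 h. Each of these genes had no 24 h library that reached any other library, with a fall of 0.82 ± 0.13 for Hp and of 0.76 ± 0.12 for Gc. Vtn encodes vitronectin, an adhesive protein of plasma and matrix, and had 36.7, 36.3 and 38.1 CPM in DMSO, 29.02, 39.1 and 30.6 CPM after 6 h, 38.1, 43.7 and 37.2 CPM after 12 h and 16.9, 25.5 and 17.2 CPM after 24 h. Ambp encodes the precursor of alpha-1-microglobulin and bikunin, and had 43.2, 44.99 and 44.8 CPM in DMSO, 35.5, 47.1 and 33.3 CPM after 6 h, 42.6, 52.99 and 41.7 CPM after 12 h and 32.7, 30.02 and 25.03 CPM after 24 h. Vtn fell by 0.91 ± 0.13, the largest fall among the carriers, and Ambp by 0.60 ± 0.12, the smallest. The highest 24 h library of Ambp came within 1 CPM of the lowest 6 h library.

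The genes of coagulation, fibrinolysis and protease inhibition fell by 0.56 to 0.92 on the log2 scale. Fga, Fgb and Fgg encode the 3 chains of fibrinogen, the precursor of fibrin, and lie next to each other on chromosome 3, Fgg 11027 and Fgb 6514 bases from Fga. Fga had 32.1, 31.7 and 30.3 CPM in DMSO, 30.5, 33.7 and 25.8 CPM after 6 h, 28.8, 37.6 and 29.5 CPM after 12 h and 16.9, 21.4 and 15.4 CPM after 24 h. Fgb had 30.96, 33.2 and 31.1 CPM in DMSO, 30.3, 34.6 and 28.8 CPM after 6 h, 29.97, 39.5 and 33.8 CPM after 12 h and 19.98, 21.2 and 15.5 CPM after 24 h. For Fgg the values were 25.9, 25.4 and 19.4 CPM in DMSO, 22.6, 25.1 and 20.6 CPM after 6 h, 21.6, 29.01 and 23.9 CPM after 12 h and 14.3, 15.9 and 9.20 CPM after 24 h. All 3 chains had replicate 3 of the 24 h group as the lowest of the 12 libraries, and they fell by 0.82 ± 0.13, 0.75 ± 0.12 and 0.85 ± 0.16 in the same order. F2, which encodes prothrombin, had 21.96, 22.5 and 22.998 CPM in DMSO, 19.5, 21.8 and 16.6 CPM after 6 h, 22.5, 24.8 and 21.98 CPM after 12 h and 13.1, 14.002 and 9.40 CPM after 24 h, and fell by 0.89 ± 0.12 (adjusted p = 9.49e-05). Plg, which encodes plasminogen, had 22.8, 23.8 and 20.9 CPM in DMSO, 23.2, 22.3 and 19.5 CPM after 6 h, 22.2, 27.4 and 17.8 CPM after 12 h and 14.5, 14.002 and 9.25 CPM after 24 h, and fell by 0.84 ± 0.16. Its annotated span overlaps Slc22a3 on the other strand.

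Serpinc1, which encodes antithrombin (chromosome 1, 160978585 to 161005863), had the second smallest p of the 37 genes. It measured 21.1, 18.9 and 21.2 CPM in DMSO, 18.6, 18.4 and 18.1 CPM after 6 h, 18.7, 20.02 and 17.6 CPM after 12 h and 10.4, 12.99 and 9.84 CPM after 24 h, and fell by 0.88 ± 0.10 (adjusted p = 1.11e-05). Its annotated span overlaps Zbtb37 and Gm37072 on the other strand and Gm37729 on the same strand. Kng1, the precursor of bradykinin, had 26.3, 22.5 and 23.4 CPM in DMSO, 21.8, 24.8 and 21.4 CPM after 6 h, 26.9, 31.98 and 25.7 CPM after 12 h and 16.8, 19.7 and 12.7 CPM after 24 h. Its fall of 0.56 ± 0.13 was the smallest of this class. Itih3 and Itih4 encode heavy chains of the inter-alpha-trypsin inhibitor family and lie 6219 bases apart on chromosome 14. Itih3 had 9.47, 8.97 and 9.10 CPM in DMSO, 10.6, 8.09 and 7.86 CPM after 6 h, 7.70, 10.2 and 7.21 CPM after 12 h and 5.26, 5.76 and 3.61 CPM after 24 h. Itih4 had 17.8, 17.02 and 17.1 CPM in DMSO, 18.3, 18.2 and 15.6 CPM after 6 h, 16.4, 19.03 and 17.3 CPM after 12 h and 11.3, 10.1 and 9.50 CPM after 24 h. The 24 h libraries of both genes lay below all 9 others, with falls of 0.92 ± 0.18 and 0.75 ± 0.10.

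In the urea cycle, Ass1 (chromosome 2, 31470207 to 31520672) had the highest level. This gene is also expressed outside hepatocytes, for instance in endothelial cells and kidney. It had 132, 137 and 139.7 CPM in DMSO, 156, 151 and 157 CPM after 6 h, 142, 134 and 133 CPM after 12 h and 107, 114 and 108 CPM after 24 h. The 6 h libraries were the 3 highest and the 24 h libraries the 3 lowest. Ass1 fell by 0.32 ± 0.05 after 24 h (SE, adjusted p = 0.000151), the smallest change of the 37 genes and the one with the smallest SE. Its share of the summed hepatocyte level was 6.10%, 6.56% and 6.77% in DMSO and 8.51%, 7.91% and 10.2% after 24 h. Cps1 and Otc encode the mitochondrial enzymes that make carbamoyl phosphate and citrulline. Cps1 had 2.01, 1.94 and 1.02 CPM in DMSO, 1.18, 1.30 and 1.52 CPM after 6 h, 0.968, 1.36 and 2.17 CPM after 12 h and 0.453, 0.831 and 0.445 CPM after 24 h. Otc had 1.34, 1.77 and 0.484 CPM in DMSO, 0.786, 1.16 and 1.37 CPM after 6 h, 0.968, 1.03 and 1.33 CPM after 12 h and 0.272, 0.534 and 0.346 CPM after 24 h. Both rested on few counts, 9 to 46 per library for Cps1 and 6 to 42 for Otc, and the DMSO and 24 h libraries of Otc overlapped. Cps1 fell by 1.54 ± 0.41 (SE, adjusted p = 0.0191) and Otc by 1.66 ± 0.49 (SE, adjusted p = 0.0336). Both calls were lost without DMSO replicate 1 or 2 and without replicate 1 or 3 of the 24 h group, with adjusted p up to 0.0857 for Cps1 and 0.176 for Otc, and that of Otc also in a fit of the 6 libraries alone. Arg1 had 4.45, 9.41 and 6.77 CPM after 12 h and 3.31, 5.81 and 4.90 CPM after 24 h, overlapping with DMSO, and a log2 fold change of -0.50 ± 0.24 (adjusted p = 0.192).

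Of the cytochromes P450, which oxidize drugs and other foreign compounds, Cyp2e1 and Cyp2f2 fell. Cyp2e1 had 27.7, 27.7 and 24.5 CPM in DMSO, 23.2, 27.3 and 23.4 CPM after 6 h, 28.5, 30.6 and 24.6 CPM after 12 h and 13.96, 18.5 and 13.5 CPM after 24 h. Cyp2f2 had 10.7, 11.67 and 11.04 CPM in DMSO, 12.5, 11.8 and 9.97 CPM after 6 h, 12.1, 12.4 and 11.3 CPM after 12 h and 4.89, 8.37 and 6.23 CPM after 24 h. In the textbook zonation of the mouse liver Cyp2e1 is pericentral and Cyp2f2 periportal. The falls were 0.81 ± 0.12 for Cyp2e1 and 0.79 ± 0.15 for Cyp2f2 (log2, SE). Cyp2c29 had 6.79, 5.43 and 7.36 CPM in DMSO, 6.92, 9.07 and 5.45 CPM after 6 h, 7.60, 6.52 and 5.88 CPM after 12 h and 4.30, 5.58 and 2.67 CPM after 24 h. Its groups overlapped and its log2 fold change against DMSO was -0.65 ± 0.24 (adjusted p = 0.0834). The annotated span of Cyp2c29 overlaps Cyp2c53-ps on the same strand. Cyp3a11 had a log2 fold change of -0.56 ± 0.19 (adjusted p = 0.0669), with all 24 h libraries below all DMSO libraries. DESeq2 called 4 of the 4 genes lower. Reads from close relatives of the Cyp2c and Cyp3a genes can be shared between them by the counting, so the values of these genes are uncertain.

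The 4 genes of amino acid breakdown and the pair of gluconeogenesis genes had negative log2 fold changes that did not pass the test. An unadjusted p under 0.05 was found in 2 of the 4 and 1 of the 2, against 4216 of all 16036 genes. DESeq2 called 1 of the 4 and 0 of the 2. Tat had -0.55 ± 0.34, Hpd and Fah of the tyrosine pathway -0.68 ± 0.25 and -0.45 ± 0.18, and the tryptophan-degrading Tdo2 -0.39 ± 0.29 (SE). G6pc, the glucose 6-phosphatase, had -0.79 ± 0.37 and Pck1, the phosphoenolpyruvate carboxykinase, -0.70 ± 0.30. Their mean levels in DMSO ran from 1.42 CPM for G6pc to 7.60 CPM for Fah, below the DMSO mean of every one of the 23 secreted proteins. The annotated span of Hpd overlaps Psmd9 on the other strand and Gm26745 on the same strand.

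Level and precision went together among the 37 genes. Of the 26 with a mean of at least 10 CPM over all libraries, 25 were called lower after 24 h, and the uncalled gene was Cyp3a11. Their log2 fold changes lay between -0.91 and -0.32 with a median of -0.79 and an SD across genes of 0.14. The median SE per gene was 0.12, which reflects the spread between libraries and is no measure of the spread between genes. Of the 11 genes under 10 CPM, Itih3, Cps1 and Otc were called lower, and the log2 fold changes ran from -1.66 to -0.39 with a median of -0.68 and a median SE of 0.29. A missed threshold does not show that a gene was level.

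**Figure D3:**
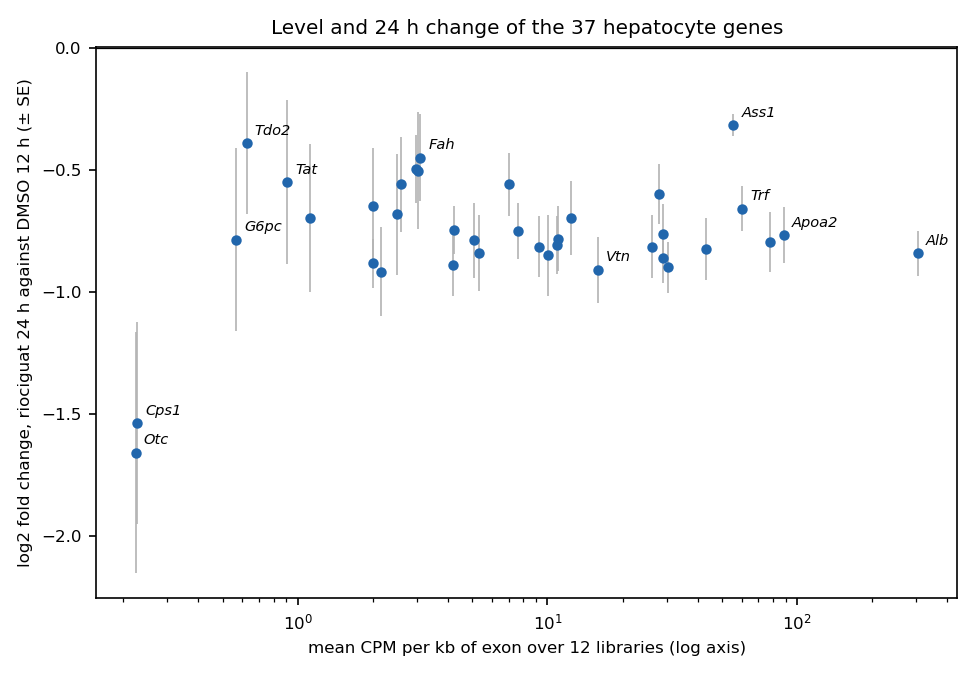
Log2 fold change after 24 h with riociguat against DMSO 12 h (vertical axis, bars are SE) plotted against the mean level of each of the 37 genes in CPM per kb of exon (horizontal log axis). Of the 37 genes 31 lie between -0.92 and -0.50, with Ass1 higher at -0.32 and the low genes Cps1 and Otc at -1.54 and -1.66.

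Within each riociguat group most of the 37 genes were highest in replicate 2 and most were lowest in replicate 3. These ranks were not counted over all genes, so whether they are particular to the 37 was not tested. After 24 h, 28 of 37 genes were highest in replicate 2 and 28 of 37 were lowest in replicate 3. After 12 h, 29 were highest in replicate 2, which had none of the lowest values, and 22 were lowest in replicate 3. After 6 h, 26 were highest in replicate 2 and 24 lowest in replicate 3, and in DMSO 20 were highest in replicate 1. Over all genes tested, deviations from the group mean in same-numbered libraries correlated at 0.079, 0.050 and 0.083 between 6 h and 12 h. Between 12 h and 24 h the values were -0.051, -0.020 and -5.3e-06, and between 6 h and 24 h -0.031, -0.0043 and -0.00040. The labels do not say whether libraries with the same number share a source.

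Promoter sequences are shown for the 4 genes with the smallest p after 24 h and for Ass1, whose change was the smallest. RefSeq promoter entries (GRCm38.p6) matched 29 of the 37 genes by symbol. Each line gives 120 bases upstream of the RefSeq start on the gene's own strand, 5′ to 3′, in windows that hold no annotated exon. The window ends at the last base before the RefSeq start for Alb, Serpinc1 and Ahsg, 22 bases before it for Hpx and 64 bases before it for Ass1. Capitals mark matches on either strand to C/EBP (TTGCNNAA), to HNF4 (CAAAGTCCA) or to a TATA box (TATAAA).
Alb, chr5:90460750-90460869, plus strand: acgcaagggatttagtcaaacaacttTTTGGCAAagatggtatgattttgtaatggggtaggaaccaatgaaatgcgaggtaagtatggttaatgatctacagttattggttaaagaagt
Serpinc1, chr1:160978463-160978582, plus strand: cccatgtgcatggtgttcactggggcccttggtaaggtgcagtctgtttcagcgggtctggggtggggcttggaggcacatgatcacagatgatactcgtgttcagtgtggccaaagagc
Hpx, chr7:105600138-105600257, minus strand: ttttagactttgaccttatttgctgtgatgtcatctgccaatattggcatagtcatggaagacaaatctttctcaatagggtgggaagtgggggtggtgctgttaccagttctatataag
Ahsg, chr16:22891895-22892014, plus strand: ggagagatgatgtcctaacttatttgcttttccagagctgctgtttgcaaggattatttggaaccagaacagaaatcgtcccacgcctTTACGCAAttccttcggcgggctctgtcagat
Ass1, chr2:31470087-31470206, plus strand: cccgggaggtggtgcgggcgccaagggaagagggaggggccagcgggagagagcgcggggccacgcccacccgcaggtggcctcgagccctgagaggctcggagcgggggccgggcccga

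The Alb window held a C/EBP match 94 to 87 bases before the start, on the other strand. In the Ahsg window a C/EBP match lay 32 to 25 bases before the start, on the other strand. The Ahsg window falls inside the longer gene span that GENCODE annotates. The other 3 windows had no match to these letters, which says nothing about the factors. In the longer RefSeq window of 250 bases before to 50 bases after the start, both strands searched and each motif counted on its own, the C/EBP motif was found in 7 of 29 genes (24.1%) and in 10.8% of all 27025 promoters. The 7 were Serpinc1, Fga, Fgb, Alb, Hpx, Apob and Ahsg. For HNF4 the counts were 1 of 29 (3.45%) against 0.477% and for the TATA box 10 of 29 (34.5%) against 14.2%. GC content of the 250 bases before the start had a median of 49.2% in the 29 genes and 52% in all promoters. Ass1 had the highest value of the 29 with 75.6%, a value that 96.9% of all promoters did not exceed, and Alb had 39.2%. These matches describe the sequences and were not tested against the changes.

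Exposure times were also compared directly. These comparisons share the 24 h, 12 h or 6 h libraries with each other and with the comparisons against DMSO. Between 6 h and 12 h with riociguat, Ass1 was called lower, 1 of 37 genes against 3.52% of all genes. Its means were 155 ± 3.16 CPM after 6 h and 137 ± 5.002 CPM after 12 h (SD, n = 3), which differed by -0.18 ± 0.05 on the log2 scale (SE, edgeR adjusted p = 0.025). The call was lost without replicate 1 or 3 of the 6 h group or replicate 2 or 3 of the 12 h group, with adjusted p up to 0.13, and also with a replicate block. The other genes had a median on the higher side, 0.16 over all 37, and none of them was called in the fit over all libraries with the low-count filter. Without that filter edgeR called 9 genes higher and 1 lower, and DESeq2 called 1 higher and 1 lower.

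Between 12 h and 24 h, 26 of 37 genes were called lower against 1.71% of all genes, and in 34 every 24 h library lay below every 12 h library, against 10.3% of all genes. All 37 log2 fold changes were negative, with a median of -0.84. The calls covered 23 of 23 secreted proteins together with Ass1, Cyp2e1 and Cyp2f2. Vtn, at 39.7 ± 3.52 CPM after 12 h and 19.8 ± 4.88 CPM after 24 h (SD, n = 3), had the largest called change with -1.01 ± 0.13 (SE, adjusted p = 0.000259). Hp had -0.96 ± 0.13 and Alb -0.83 ± 0.09. Of these calls Apob was lost without replicate 2 or 3 of either group, Apoc3 without replicate 1 or 2 of the 12 h group or replicate 1 or 3 of the 24 h group, and Itih3 without replicate 2 of the 12 h or replicate 3 of the 24 h group. Their adjusted p then reached 0.169, 0.0921 and 0.151.

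Between 6 h and 24 h, 27 of 37 genes were called lower against 8.13% of all genes, and in 31 the 24 h libraries lay below all 6 h libraries, against 15.7% of all genes. The median log2 fold change was -0.70 and all 37 were negative. Ass1, which was highest after 6 h, had -0.50 ± 0.05 (SE, adjusted p = 8.07e-07). Arg1 was called in this comparison, at 9.003 ± 0.349 CPM after 6 h and 4.67 ± 1.27 CPM after 24 h (SD, n = 3), with -0.95 ± 0.24 (adjusted p = 0.0101). Cyp2c29 was called with -0.78 ± 0.24 (adjusted p = 0.0352) although its groups overlapped. Apob and Apoc3 were not called, with -0.28 ± 0.14 and -0.43 ± 0.15. The calls of Ambp, Kng1, Otc, Arg1 and Cyp2c29 were each lost in 1 to 5 of the 11 alternatives, with adjusted p up to 0.233, 0.109, 0.15, 0.0579 and 0.186. For Arg1 the library concerned was replicate 1 of the 24 h group. For Ambp they were replicate 2 of the 6 h group and replicates 2 and 3 of the 24 h group, and for Kng1 replicate 2 of the 6 h and replicate 3 of the 24 h group. Otc depended on replicates 2 and 3 of the 6 h group and replicates 1 and 3 of the 24 h group, and on the fit without a replicate block. Cyp2c29 depended on replicates 1 and 2 of the 6 h group and replicates 1 and 3 of the 24 h group, and on the fit over all 12 libraries.

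Further hepatocyte genes outside the 37 were read from longer lists, which were also chosen with earlier results of these data known. Among 55 tested genes for other secreted proteins, 28 were called lower after 24 h against DMSO, where 7.41% of all genes were, with a median log2 fold change of -0.74. The alpha-1-antitrypsin gene Serpina1b went from 63.4 ± 4.94 to 35.9 ± 3.90 CPM (SD, n = 3), a fall of 0.82 ± 0.09, and its near-identical neighbour Serpina1d fell by 0.87 ± 0.10, although reads of this family can be split uncertainly between copies. Serpina3k fell by 0.84 ± 0.11 and Serpina1c by 0.83 ± 0.13. C3, the central complement component and the most abundant of the list, fell from 329.8 ± 10.8 to 252 ± 16.7 CPM, a log2 fold change of -0.39 ± 0.05. After 12 h none of the 55 was called, against 5.66% of all genes in either direction, and DESeq2 also called 0. An unadjusted p under 0.05 was found in 2 of the 55, against 2695 of all 16036 genes. Apom had 1.05 ± 0.37 after 12 h (edgeR adjusted p = 0.129), F13b 1.24 ± 0.48 and Mup3 0.27 ± 0.13. After 6 h none was called either, against 4.48% of all genes higher and 5.24% lower, while DESeq2 called 1 lower. An unadjusted p under 0.05 was then found in 3 of the 55, against 3722 of all 16036 genes. Apoa5 had -0.39 ± 0.13 after 6 h (edgeR adjusted p = 0.0695), Serpina1d -0.24 ± 0.10 and C8g -0.61 ± 0.25.

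Among 67 tested genes for other hepatocyte metabolism and transport, 25 were called lower after 24 h and 3 higher, against 7.41% and 5.94% of all genes, with a median of -0.67. The 3 of 67 called higher are thus no larger a share than that over all genes. The carboxylesterase genes Ces1c and Ces3a fell by 0.89 ± 0.14 and 0.80 ± 0.12. The 3 genes called higher were Glul, the glutamine synthetase, with 0.34 ± 0.05, the glutathione transferase gene Gstp1 with 0.35 ± 0.04, and Hao1, the hydroxyacid oxidase, with 1.24 ± 0.29. Gstp1 was by far the most abundant of the list, with 1171 ± 29.8 CPM in DMSO and 1498 ± 26.5 CPM after 24 h, and its 12 h libraries were already higher (0.31 ± 0.04, adjusted p = 0.000236), as were its 6 h libraries (0.24 ± 0.04). This list summed to 2013 ± 21.3 CPM in DMSO and 2258 ± 85.7 CPM after 24 h, so its sum was higher while the log2 fold change of its median gene was negative. Gsta3 rose after 6 h (0.37 ± 0.06) and was lower after 24 h (-0.23 ± 0.06). Hao1 was also called higher after 12 h (1.03 ± 0.29), and Adh1, an alcohol dehydrogenase gene, had -0.36 ± 0.12 then, which did not pass the test. Glul had 0.14 ± 0.05 after 6 h and 0.16 ± 0.05 after 12 h, neither called.

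A list of hepatocyte transcription factors was read in the same way. Of 20 tested, 0 were called after 24 h, when 7.41% of all genes were called lower and 5.94% higher, and DESeq2 also called 0. An unadjusted p under 0.05 was found in 2 of the 20, against 4216 of all 16036 genes. The median log2 fold change of the 20 was -0.10. The 3 with the smallest p were Foxa2 with -0.49 ± 0.18, Cebpa with -0.37 ± 0.14 and Onecut1 with 0.73 ± 0.35, with adjusted p of 0.0899, 0.105 and 0.193. The most abundant were Zhx2, Prox1 and Onecut2, with 0.04 ± 0.06, 0.05 ± 0.09 and 0.13 ± 0.12. Hnf4a, named here after its values were seen because it is the master regulator of hepatocyte genes, had 10.3, 11.6 and 9.54 CPM in DMSO, 6.999, 11.02 and 9.05 CPM after 6 h, 11.67, 13.4 and 10.1 CPM after 12 h and 10.6, 11.04 and 9.001 CPM after 24 h. Its groups overlapped, with a log2 fold change of -0.04 ± 0.15 after 24 h (adjusted p = 0.904). After 6 h 1 of 20 was called, a share no larger than the 5.24% of all genes called lower. It was Prox1, lower by 0.48 ± 0.10, while Ppara had 0.62 ± 0.25 without passing. After 12 h 0 of 20 were called, against 5.66% of all genes in either direction, while DESeq2 called 1 higher. An unadjusted p under 0.05 was then found in 3 of the 20, against 2695 of all 16036 genes. Cebpb had 0.62 ± 0.20 after 12 h, Nr1h4 -0.30 ± 0.11 and Prox1 -0.20 ± 0.09. Several of these factors, such as Prox1 and Onecut2, are also made by endothelial cells or cholangiocytes.

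**Figure D4:**
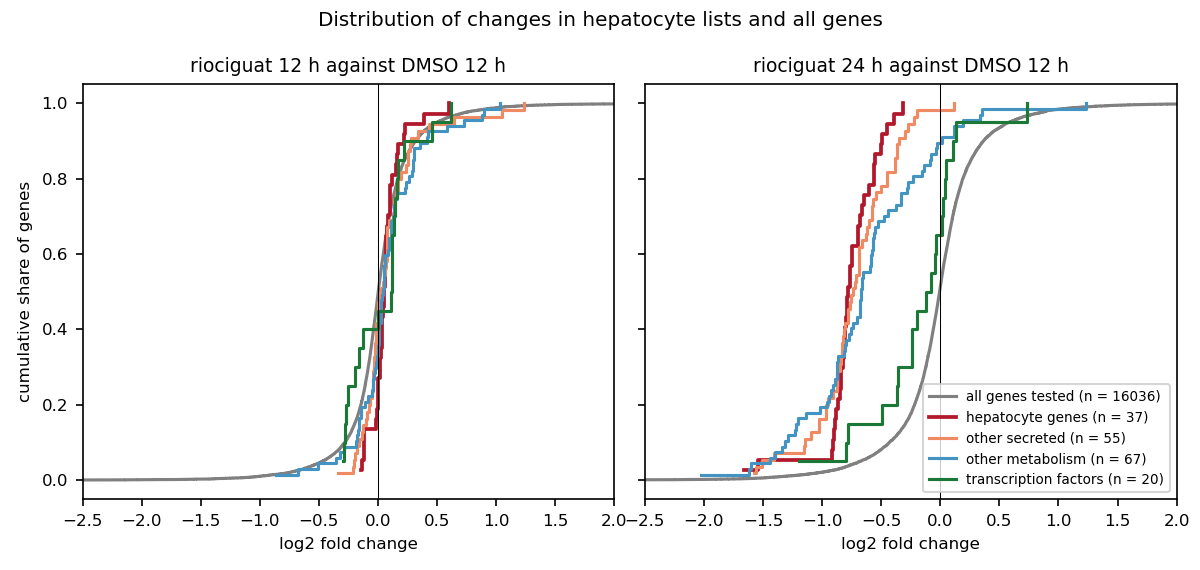
Cumulative share of genes (vertical axis) by log2 fold change (horizontal axis) against DMSO 12 h, after 12 h (left) and 24 h (right) with riociguat, for the 37 hepatocyte genes, 3 further hepatocyte lists and all 16036 genes tested. After 12 h the curves lie close to 0. After 24 h those of the 37 genes (median -0.78), of other secreted proteins (-0.74) and of other metabolism genes (-0.67) lie to the left, and that of the transcription factors (-0.10) stays nearer to all genes (-0.01).

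Markers of other liver cells were summed in the same libraries. The stellate sum was 4679 ± 34.0 CPM in DMSO and 5125 ± 106 CPM after 24 h (SD, n = 3), 109.5% of the DMSO mean, with 9 of 19 markers called higher and 4 lower, against 5.94% and 7.41% of all genes. The endothelial sum went from 1450.3 ± 46.4 to 1229.9 ± 38.0 CPM, 84.8% of DMSO, with 6 of 15 markers lower and 3 higher. Cholangiocyte markers stood at 86.7% of DMSO with 1 of 7 lower, macrophage markers at 111% with 1 of the 14 tested higher, and portal fibroblast and mesothelial markers at 93.2% with 1 of 9 lower. None of the stellate, endothelial or cholangiocyte markers was at 0 in a whole group, and 1 of the 15 macrophage markers had no count in the 24 h group and 1 none in the 6 h group. Lymphocyte markers, of which 4 of 10 passed the filter, summed to 2.62 to 4.03 CPM after 24 h. After 6 h the endothelial sum was at 119% of the DMSO mean, the cholangiocyte sum at 88.4% and the stellate sum at 99.4%. Portal fibroblast and mesothelial markers were then at 77.9% and lymphocyte markers at 48.4%. Of the former 2 of 9 were called lower and 1 higher, against 5.24% and 4.48% of all genes after 6 h.

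**Figure D5:**
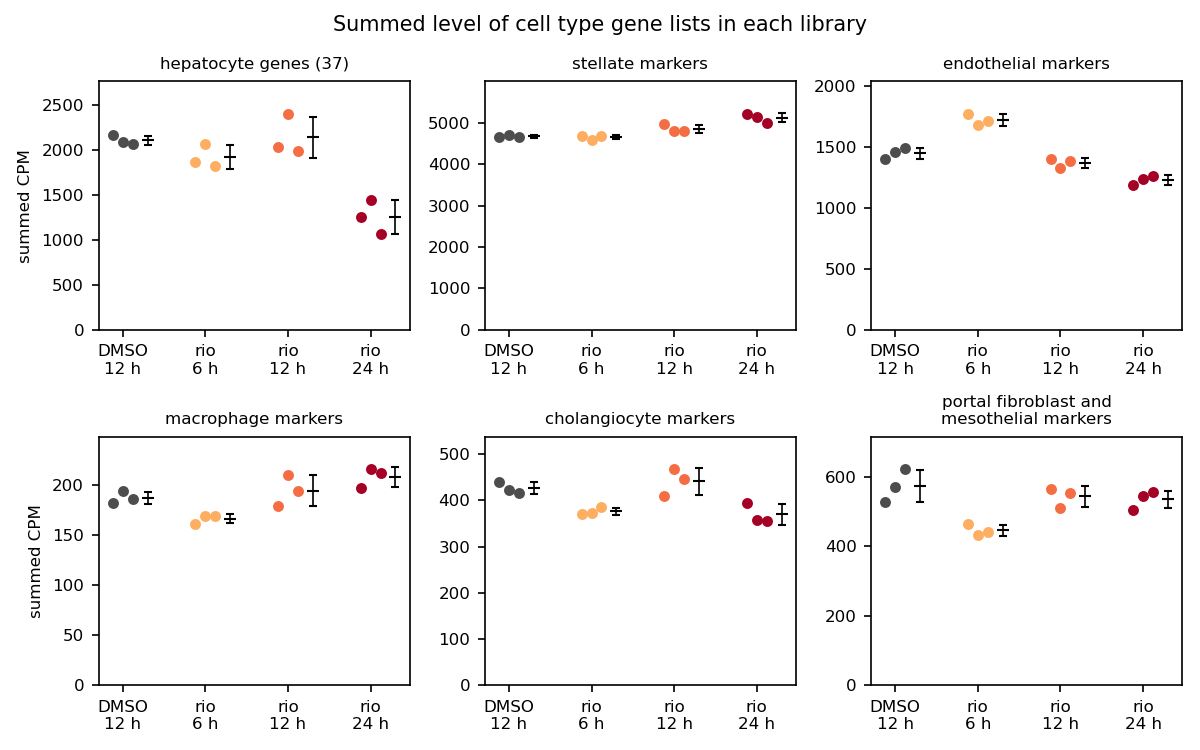
Summed CPM of the 37 hepatocyte genes and of 5 marker lists in each library (points, by group, rio is riociguat), with the mean and SD of 3 libraries beside them. Each vertical axis starts at 0. The hepatocyte sum after 24 h, 1061 to 1445 CPM, lies below every other library. The stellate sum after 24 h, 5009 to 5217 CPM, lies above every other library (4594 to 4963 CPM).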

How the data were processed

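Bulk RNA was sequenced from 12 cultures of mouse liver cells, 3 libraries for each of 4 groups. The authors deposited 1 table of estimated counts per gene and library, which held whole numbers only, so rounding changed 0 values. The submitters' processing notes name FastQC, fastp, Salmon, DESeq2 and the build GRCm38, without roles or versions, and the strand handling of the counting was not given in the sources used here. No value column was left unmapped to a sample. Library totals ran from 12953096 to 27358893, and within-group pairs differed beyond sampling noise (chi-square per degree of freedom 4.08 to 16.0 over 12 pairs), so all 12 libraries were counted.

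The counts were filtered with filterByExpr, which left 16036 of 53452 genes, scaled with TMM factors and fitted once over all groups with the quasi-likelihood model of edgeR 4.0.16 in R 4.3.3 (limma 3.58.1 installed). The tests were two-sided, and p-values were adjusted over all genes tested with Benjamini-Hochberg at a threshold of 0.05. The procedure was run on simulated counts that had a single spread setting for all genes and no shift shared by genes of a library. That run therefore does not cover such shifts in these data. Errors of log2 fold changes are SE from the fit. CPM uses filtered totals times TMM factors, and levels per kilobase divide by the union of annotated exons (GENCODE for GRCm38). DESeq2 1.42.0, RLE factors, no filter, a replicate block, fits of 6 libraries and leaving out each library were the alternatives. Correlations of deviations between same-numbered libraries, over all genes tested, ran from -0.136 to 0.084 over 18 pairs. They were positive for 6 h with 12 h (0.079, 0.050 and 0.083) and for DMSO with 24 h (0.084, 0.048 and 0.046). Between the other groups they were negative. The labels do not state a pairing, so the numbers were not used as pairs.

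The 37 genes, the further gene lists and the marker lists were chosen with earlier results of these data known. Values in every library are given for members called in any of the 6 comparisons and for the 6 highest per kilobase, and the remaining members by fold change or range. Of the further hepatocyte lists, the 3 genes with the smallest p in each comparison with DMSO and the 3 most abundant are named, except for 1 gene that is not reported here. Of 223 list entries beside the 37, 222 matched the table by symbol and 210 passed the filter.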

Additional observations from a re-analysis of the deposited data

Results flagged for a closer look

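The fall of the hepatocyte genes differed between exposure times, tested as the difference between the riociguat groups themselves with edgeR's quasi-likelihood test. Between 12 h and 24 h with riociguat 26 of 37 genes were called lower, against 1.71% of all genes, and between 6 h and 24 h 27 of 37 were, against 8.13%. Between 6 h and 12 h 1 of 37, Ass1, was called lower, a share no larger than the 3.52% of all genes. All 3 exposure groups were collected at the same time after the medium change, so the exposure time and the stage of culture at which riociguat was added cannot be told apart.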

How the results depend on the processing

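No log2 fold change of a called gene changed sign under any of the 11 alternatives run for its comparison. Of the calls, 25 of 28 (24 h against DMSO), 23 of 26 (24 h against 12 h) and 22 of 27 (24 h against 6 h) were kept in all of them. Leaving out 1 library at a time gave 25 to 29, 23 to 26 and 23 to 28 of the 37 genes lower in these comparisons. For 6 h against DMSO it gave 0 to 1 call, which was higher, and for 12 h against 6 h 0 to 2 calls in either direction, of which 0 to 1 were lower. Over all genes it gave 510 to 1262 calls for 12 h against DMSO (907 with all libraries), 955 to 1852 for 6 h (1559), 1395 to 2566 for 24 h (2141), 596 to 836 for 12 h against 6 h (976), 318 to 432 for 24 h against 12 h (494) and 1772 to 2117 for 24 h against 6 h (2451). Without the low-count filter 4 of the 37 genes were called after 6 h, 1 higher and 3 lower, and 10 between 6 h and 12 h, 9 higher and 1 lower, and 838 genes were called between 12 h and 24 h; the cause was not tested. DESeq2 called 2 between 6 h and 12 h, and a fit of the 6 libraries compared called 2 there and 2 after 6 h.

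A replicate block was also fitted, although the labels do not state a pairing. It gave 0, 1 and 28 calls among the 37 genes after 12 h, 6 h and 24 h against DMSO. For 24 h against 12 h and 6 h it gave 27 and 26. Between 6 h and 12 h Ass1 was lost and Apoa2 gained as higher. Of 12 libraries 8 correlated best with a library of their own number. The counts of all genes under the block were 793, 1348, 1944, 842, 443 and 2208, in the order of the counts given above. RLE factors moved the median of all genes by less than 0.1 and called 28, 26 and 27 of the 37 genes in the 3 comparisons of 24 h. Without Alb the summed levels were 1270, 1196.2, 1315.7 and 786.42 CPM in DMSO and after 6, 12 and 24 h.

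The depth limits the genes under 10 CPM, of which Cps1 and Otc had as few as 9 and 6 counts in a library. There is no 24 h DMSO group, the dose is not given, and intervals from 3 libraries a group may reflect technical spread.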
